A study of Mus musculus with 6 samples.

Results

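The 33 genes described here make up a mouse ATF4 amino acid stress programme. They were chosen by name from knowledge of the pathway, with earlier results of these data known. Found in the count files through their Ensembl identifiers, all 33 matched 1 identifier each among 49315. All 33 passed the filter on low counts that left 16068 genes to test. Their counts ran from 25 reads for Cbs in WT9 to 36786 reads for Psat1, and 27 of them had at least 1000 reads in every line.

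The cells were fibroblast lines from mouse embryos (C57BL/6), all without p53, cultured in DMEM with serum, untreated and taken at passage 4. In 3 lines (SG1, SG2 and SG3; p53-/-;MDMXSG/SG) both Mdm4 alleles were a knock-in with the substitutions W201S and W202G in MDMX, which break its contact with casein kinase 1 alpha. In the other 3 lines (WT3, WT9 and WT11; p53-/-;MDMXWT/WT) MDMX was wild type. Each line came from 1 embryo, so n = 3 embryos per genotype, and every comparison below is between mutant and wild-type MDMX on a background that lacks p53 throughout.

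When amino acids run short, the kinase GCN2 phosphorylates the initiation factor eIF2, general translation slows, and the upstream reading frames of the Atf4 mRNA let more ATF4 protein be made. The kinases PERK, PKR and HRI reach the same switch from stress of the endoplasmic reticulum, from double-stranded RNA and from heme or mitochondrial stress. ATF4 pairs with C/EBP proteins on composite promoter elements and raises genes for amino acid synthesis, transport and tRNA charging, together with the brakes that end the response. Fibroblasts without ATF4 are known to need added amino acids in culture. Because ATF4 is controlled largely in translation, mRNA counts report its targets and not its protein.

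The composite element is shown first, because it is the sequence by which ATF4 is known to act on several of these genes. The letters TGATGNAA were searched on both strands in RefSeq promoters (build GRCm38.p6, 250 bases before to 50 after a gene's start). Of the 33 genes, 28 were in that promoter table and 10 had a match (35.7%), against 4.51% of 27025 genes with a promoter there. Because the 33 were chosen from knowledge of the pathway, the higher share is a description and no independent result. Among the aminoacyl-tRNA synthetase genes, 5 of the 13 in the table had a match (Aars, Gars, Iars, Tars and Yars). Examples from 5 of the 33 genes follow, each 5′ to 3′ on the gene's strand, with the match in capitals.
Asns, chr6:7693210-7693258, minus strand: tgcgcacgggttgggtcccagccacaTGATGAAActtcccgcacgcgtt
Chac1, chr2:119351023-119351082, plus strand: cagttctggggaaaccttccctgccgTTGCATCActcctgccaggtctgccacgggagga
Nupr1, chr7:126625547-126625606, minus strand: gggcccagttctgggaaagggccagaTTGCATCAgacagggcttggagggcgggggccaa
Atf3, chr1:191183410-191183469, minus strand: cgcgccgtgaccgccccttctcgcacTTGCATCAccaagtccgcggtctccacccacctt
Slc7a11, chr3:50443646-50443705, minus strand: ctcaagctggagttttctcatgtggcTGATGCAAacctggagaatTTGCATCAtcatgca

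The Asns element starts 23 bases before the RefSeq start, those of Nupr1 and Atf3 110 bases before it, and that of Chac1 193 bases before it. Slc7a11 has a pair of matches, at 66 and 47 bases before the start, in opposite orientations. Trib3, Vldlr, Pycr1, Slc1a4 and Fgf21 had the other matches, Trib3 in its first 50 transcribed bases. A match is a string of letters and not a measured site, and a gene without one, such as Psat1, Phgdh, Ddit3, Cebpg or Stc2, may still hold an element outside this window. For contrast, the ER stress element (CCAAT, any 9 bases, CCACG, on either strand) matched 0 of the 28 genes, 7 of 16 genes of the unfolded protein response in the table (43.8%) and 0.137% of all genes there.

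Libraries held between 49317925 and 65457242 counted reads, with scaling factors between 0.991 and 1.01. The 10 fibroblast markers summed to 23170 to 25790 CPM (counts scaled to library size) in SG lines, against 22126 to 22864 CPM in WT lines, and Fn1, Col1a1, Col1a2 and Vim made up most of that sum. Dcn (10.3 to 16.0 CPM in SG, 12.7 to 15.6 in WT) and Lum (2.04 to 2.41 CPM in SG, 2.25 to 2.66 in WT) were low. Of the 10, 7 had log2 fold changes below 0, and Thy1 fell (-0.72, edgeR adjusted p = 0.00802 over all tested genes) while Fn1 rose in SG lines (0.40, edgeR adjusted p = 0.0308). Among 6 neural markers Nes dominated (402 to 430 CPM in SG, 255 to 345 in WT). Tubb3 followed, at 36.1 to 40.8 CPM in SG, against 41.9 to 46.6 CPM in WT lines. Nes (0.51) and Elavl4 (0.79) had log2 fold changes above 0. The other 4 lay below 0: Tubb3 (-0.16), Map2 (-0.60), Gfap (-0.74) and Sox2 (-2.89, at most 4.08 CPM). The smallest edgeR adjusted p of the 6 was 0.0521. The genotypes did not overlap in 83.3% of the 6, beside 21.2% of all tested genes. Among 6 endothelial markers Kdr dominated (49.9 to 70.5 CPM in SG, 38.1 to 51.9 in WT), and no other exceeded 1.72 CPM in any line. Among 8 epithelial markers Krt18 (13.2 to 23.3 CPM in SG, 8.39 to 15.3 in WT) led. Cldn4 followed (4.37 to 19.0 CPM in SG, 2.81 to 10.4 in WT). No other exceeded 2.94 CPM, the value of Krt5 in SG1. Krt5 had 162 reads in SG1, 107 in SG2, and 0 in SG3 and in every WT line. Krt14 had 43 reads in SG1, 96 in SG2 and 18 in SG3, against 8 in WT3, 6 in WT9 and 16 in WT11. Its log2 fold change was 2.33 (edgeR adjusted p = 0.122). The 14 macrophage markers summed to 36.1 CPM in SG1, 40.3 in SG2 and 84.6 in SG3, against 45.5 in WT3, 43.6 in WT9 and 15.4 CPM in WT11, with 0 of them at 0 in any line. Xist was read in SG1 and WT9 (399 and 343 CPM) and stood between 0.565 and 0.70 CPM in the other 4 lines. Ddx3y, a gene of the Y chromosome, had 0.163 CPM in SG1 and 0.122 in WT9, and 92.2 to 99.0 CPM in the other 4 lines. By these genes SG1 and WT9 read as female and the other 4 lines as male, so each genotype held 1 female line. SG1 and WT9 are left out together in an alternative below.

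The programme was expressed in all lines, with enzymes and Atf4 itself at the top. Levels of different genes are given as RPKM, reads scaled to both library size and exon length. Atf4 averaged 180 RPKM in SG and 189 RPKM in WT lines. Phgdh and Psat1, the enzymes of the opening steps of serine synthesis, averaged 166 and 123 RPKM in SG and 170.3 and 129 RPKM in WT lines. Shmt2 (serine to glycine in mitochondria) stood at 116 RPKM in SG and 124 RPKM in WT lines, and Atf5, another ATF-family factor, at 98.4 and 101 RPKM. In every line 20 of the 33 genes exceeded 10 RPKM. At the low end, Gdf15 and Fgf21, hormones released under stress, averaged 0.921 and 0.542 RPKM in SG and 0.857 and 0.684 RPKM in WT lines. Cbs, of transsulfuration, was lowest, at 0.192 RPKM in SG and 0.1996 RPKM in WT lines. Of the 32 pairs of neighbours in the order of mean RPKM, 26 overlapped in the range of their 6 lines. Clear steps, where the lowest line of one gene lay above the highest of the next, came below Phgdh, Slc3a2, Aldh18a1, Atf3, Slc7a11 and Fgf21.

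**Figure D1:**
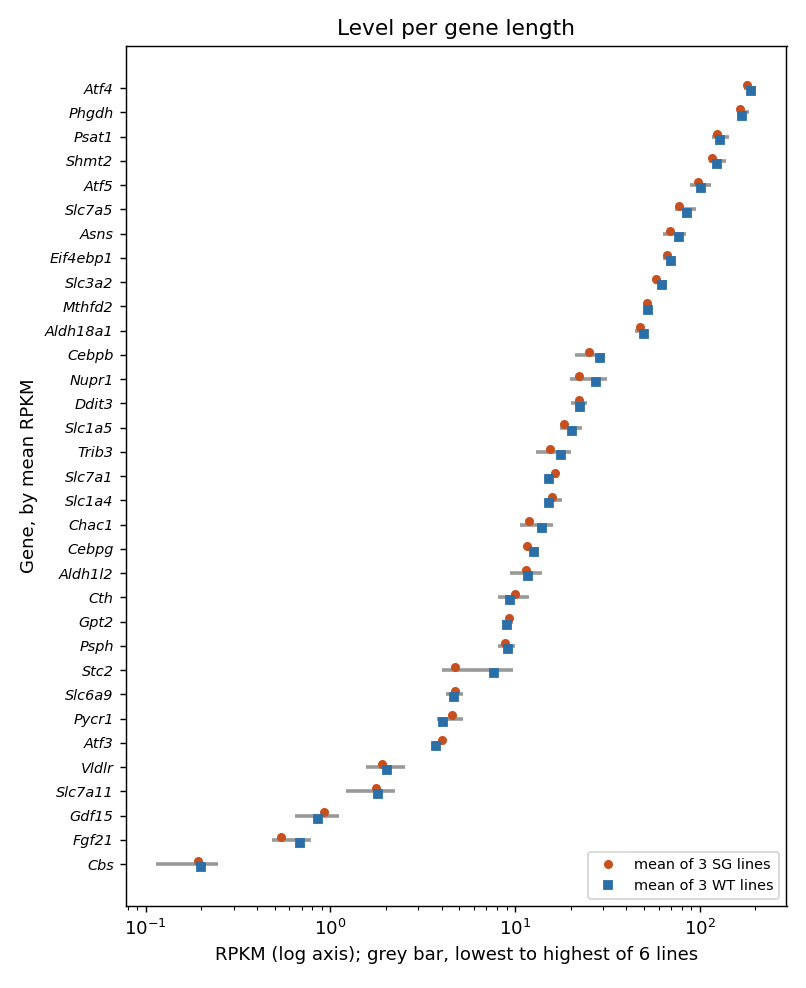
Mean RPKM of the 33 genes (log axis) in 3 SG lines (circles) and 3 WT lines (squares), ordered by the mean of all lines, with grey bars for the lowest to highest of the 6 lines. Atf4 leads at 180 RPKM in SG and 189 RPKM in WT, Cbs is last at 0.192 and 0.1996 RPKM, and Stc2 is the gene whose genotype means stand farthest apart.

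Between genotypes, 0 of the 33 genes passed the threshold in either direction (edgeR quasi-likelihood test, adjusted p of at most 0.05 over all tested genes), where 1.9% of all tested genes did (0.809% higher and 1.1% lower in SG lines). At an unadjusted p under 0.05, 0 were higher and 4 lower in SG lines (Stc2, Nupr1, Cebpg and Asns), where 7.28% of all tested genes were higher and 8.2% lower. DESeq2 on the same 16068 genes called 1, Nupr1, lower in SG lines (adjusted p = 0.035), and edgeR without a count filter called 2, Stc2 and Nupr1, both lower. The median log2 fold change of the 33, SG minus WT, was -0.06, against 0.0017 over all tested genes. Log2 fold changes lay below 0 for 25 of the 33, beside 7925 of all 16068 tested genes. This median depended on single lines: it was -0.030 without SG2 and -0.013 without WT11, and -0.12 without SG3 or without WT9. The CPM of the genotypes did not overlap in 5 genes, of which Atf3 was higher in SG lines and 4 were lower, which is 15.2% of the 33, beside 21.2% of all tested genes. A p above the threshold does not show equal levels, so the 95% intervals are given. For 29 of the 33 genes the interval lay within a 1.5-fold change either way, and the exceptions were Stc2, Fgf21, Gdf15 and Cbs. In bulk RNA, fewer cells of a type and less RNA per cell cannot be told apart.

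**Figure D2:**
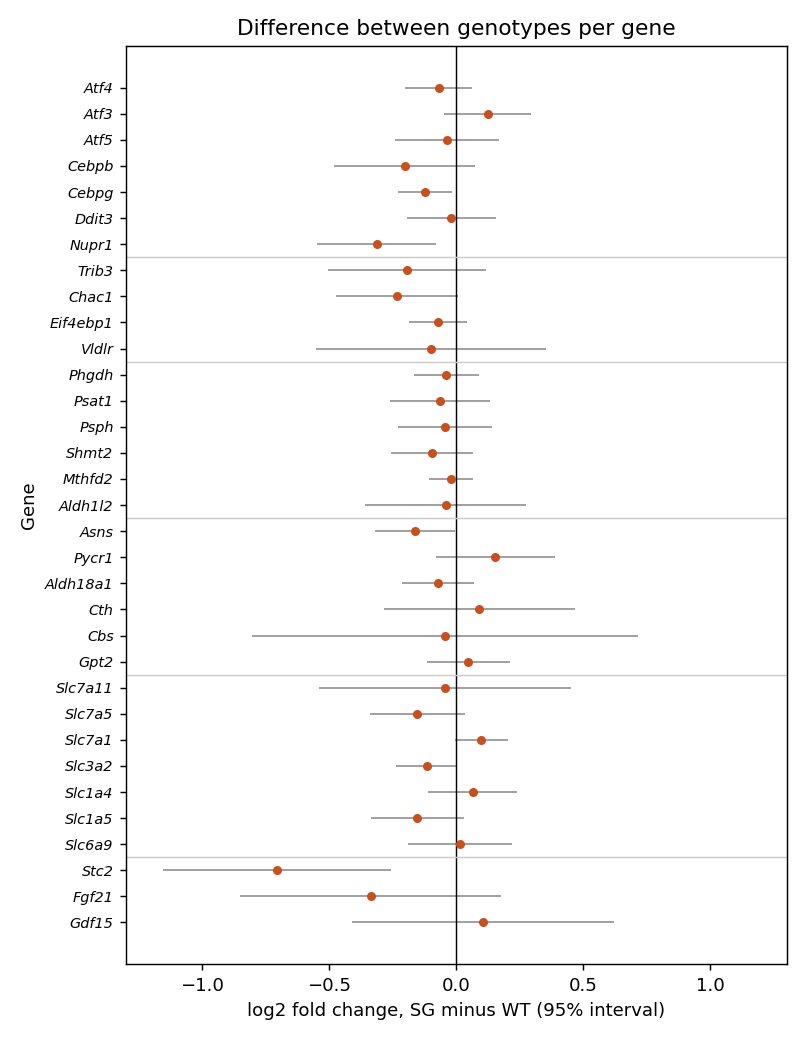
Log2 fold change, SG minus WT, of the 33 genes with 95% intervals from the edgeR fit, grouped by role from transcription factors at the top to secreted proteins at the bottom. Most points lie within 0.2 of 0, and Stc2 (-0.71) and Nupr1 (-0.31) are lowest in their groups.

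The first group, Atf4 and the transcription factors around it, has 7 genes, 6 of them with log2 fold changes below 0 and 0 past the threshold. Atf4 (ENSMUSG00000042406, chromosome 15, 80255184 to 80257540, GRCm38) had 305 CPM in SG1, 305 in SG2 and 320.02 in SG3, against 326 in WT3, 301 in WT9 and 349.9 CPM in WT11. The genotypes overlapped, with WT9 the lowest line and WT11 the highest. The log2 fold change was -0.07 (SE 0.06, 95% interval -0.20 to 0.06, edgeR adjusted p = 0.623).

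Ddit3 (ENSMUSG00000025408, chromosome 10, 127290774 to 127296288) encodes CHOP, the factor of prolonged stress. It had 39.2 CPM in SG1, 34.4 in SG2 and 40.3 in SG3, against 41.9 in WT3, 36.7 in WT9 and 36.8 CPM in WT11, with the lines of both genotypes interleaved (log2 fold change -0.02, 95% interval -0.19 to 0.15). Nupr1 (ENSMUSG00000030717, chromosome 7, 126623249 to 126630861), a small chromatin protein of stress, had 62.1 CPM in SG1, 50.1 in SG2 and 55.0 in SG3. WT3 had 78.8, WT9 64.6 and WT11 64.4 CPM, so every SG line lay below every WT line, SG1 only just. The difference (-0.31, SE 0.10, unadjusted p = 0.0149) did not pass over all genes (edgeR adjusted p = 0.179).

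Cebpg, a C/EBP partner of ATF4 (ENSMUSG00000056216, chromosome 7, 35046422 to 35056573), had 64.8 CPM in SG1, 64.8 in SG2 and 67.4 in SG3. WT3 had 69.6, WT9 69.0 and WT11 75.8 CPM, so the genotypes did not overlap, and the gap between the nearest lines was small. Its log2 fold change was -0.12 (SE 0.05, edgeR adjusted p = 0.252). Cebpb had a log2 fold change of -0.20 with SG1 low (31.8 CPM) and the other SG lines at 36.0 and 45.5 CPM, against 41.2 to 46.3 CPM in WT lines. It shares 20.7% of its exon bases with Tmem189 on the opposite strand, and the strand setting of the counting is not given in the sources used here. Atf3, a stress-induced repressor and activator, was the gene whose SG lines (8.63 to 8.82 CPM) all exceeded the WT lines (7.73 to 8.5 CPM), by a log2 fold change of 0.12 (edgeR adjusted p = 0.499). Atf5 varied in SG lines (177 to 228 CPM) and hardly in WT lines (201 to 203 CPM), with a log2 fold change of -0.04.

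The second group holds brakes and effectors of the response, and its 4 genes all had log2 fold changes below 0, with none past the threshold. Trib3 (ENSMUSG00000032715, chromosome 2, 152337422 to 152344032), a pseudokinase that damps ATF4 and CHOP, had 32.2 CPM in SG1, 27.5 in SG2 and 38.7 in SG3, against 37.3 in WT3, 32.7 in WT9 and 42.7 CPM in WT11. Its within-genotype range, 1.40-fold in SG and 1.31-fold in WT lines, exceeded the difference between genotypes (log2 fold change -0.19, 95% interval -0.51 to 0.12). Chac1 (ENSMUSG00000027313, chromosome 2, 119351229 to 119354381), which degrades glutathione, had 19.97 CPM in SG1, 17.5 in SG2 and 21.1 in SG3, against 22.3 in WT3, 20.4 in WT9 and 26.1 CPM in WT11. SG3 lay above WT9, so the groups overlapped (log2 fold change -0.23, SE 0.10, unadjusted p = 0.0561, edgeR adjusted p = 0.341).

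Vldlr, a lipoprotein receptor raised by ATF4, had 15.8 CPM in SG1, 15.9 in SG2 and 25.5 in SG3, against 19.0 in WT3, 18.4 in WT9 and 23.8 CPM in WT11. SG3 was the highest line and the other SG lines the lowest, with a log2 fold change of -0.10 (SE 0.19). Eif4ebp1, which encodes the translation repressor 4E-BP1, ranged from 139 to 152 CPM in SG and from 148 to 161 CPM in WT lines.

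The third group, enzymes that make serine and pass its carbon to folate, had the smallest differences between genotypes. Its 6 genes had log2 fold changes between -0.10 and -0.02, 0 passed the threshold, and the smallest adjusted p was 0.577. Phgdh (ENSMUSG00000053398, chromosome 3, 98313170 to 98339990), of the entry step, had 398 CPM in SG1, 412 in SG2 and 426 in SG3, against 408 in WT3, 403 in WT9 and 459 CPM in WT11. Psat1 (ENSMUSG00000024640, chromosome 19, 15904678 to 15947337), the transaminase that follows, had 499.6 CPM in SG1, 499 in SG2 and 578 in SG3, against 529 in WT3, 505 in WT9 and 613 CPM in WT11. For both genes WT11 was the highest line, SG3 was the highest SG line, and the genotypes overlapped.

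Their log2 fold changes were -0.04 (95% interval -0.17 to 0.09) for Phgdh and -0.06 (95% interval -0.26 to 0.13) for Psat1. Mthfd2, the mitochondrial folate enzyme, was the steadiest of the 33, at 177 to 183 CPM in SG and 179 to 189.8 CPM in WT lines, 1.07-fold from lowest to highest. Aldh1l2, which oxidises formyl-folate in mitochondria, ranged more widely, from 70.8 CPM in SG2 to 105 CPM in SG3, against 80.4 to 96.8 CPM in WT lines. It shares 14.1% of its exon bases with D10Wsu102e on the opposite strand. Psph, the phosphatase that completes serine synthesis, shares 10.4% of its exon bases with the abundant Cct6a on the opposite strand, and had a log2 fold change of -0.05.

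The 6 other amino acid enzymes split evenly, with 3 above and 3 below 0. Asns (ENSMUSG00000029752, chromosome 6, 7675169 to 7693254), asparagine synthetase and the classic target of amino acid shortage, had 193 CPM in SG1, 174 in SG2 and 197 in SG3. WT3 had 204, WT9 198 and WT11 229 CPM, so no line of one genotype crossed into the other, with SG3 and WT9 nearly touching. The log2 fold change was -0.16 (SE 0.07, 95% interval -0.32 to -0.0039, unadjusted p = 0.0457), and it did not pass over all genes (edgeR adjusted p = 0.309).

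Pycr1, of proline synthesis, had the highest log2 fold change of the 33 (0.15, SE 0.10), at 16.2 to 20.6 CPM in SG and 14.8 to 17.2 CPM in WT lines. Aldh18a1, which supplies the proline pathway, had one of -0.07. Cbs had 0.761 CPM in SG1, 0.517 in SG2 and 0.651 in SG3, against 0.82 in WT3, 0.382 in WT9 and 0.799 CPM in WT11. These values rest on 25 to 48 reads a line, and the interval of its log2 fold change (-0.80 to 0.71) does not exclude a change of 1.5-fold either way. Cth, the next enzyme of transsulfuration, was highest in SG3 and WT11 (32.7 and 33.3 CPM) and lay between 22.7 and 25.8 CPM in the other lines.

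Of the 7 amino acid transporters, 3 had log2 fold changes above 0 and 4 below, and 0 passed. Slc3a2 (ENSMUSG00000010095, chromosome 19, 8706882 to 8723369), the heavy chain that brings the light chains Slc7a5 and Slc7a11 to the membrane, had 199 CPM in SG1, 199 in SG2 and 213 in SG3. WT3 had 214, WT9 213 and WT11 236 CPM, with SG3 just above WT9 (log2 fold change -0.12, SE 0.05, unadjusted p = 0.0525, edgeR adjusted p = 0.331). Slc7a5, the leucine transporter, had a log2 fold change of -0.15, and so had Slc1a5, a glutamine transporter. Slc6a9 had one of 0.01. It shares 27.8% of its exon bases with Ccdc24 on the opposite strand, a gene with 216 reads over the 6 lines.

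Slc7a11 (ENSMUSG00000027737, chromosome 3, 49892526 to 50443614), the cystine importer that p53 is known to repress, had 25.8 CPM in SG1, 16.8 in SG2 and 31.1 in SG3. WT3 had 28.9, WT9 26.3 and WT11 20.8 CPM, so WT11 was its lowest WT line, as it was for Atf3 and Nupr1 and for no other of the 33. SG3 and SG2 were the extremes, 1.85-fold apart, and the interval of the log2 fold change (-0.54 to 0.45) covers both directions. Slc7a1, which imports arginine and lysine, was one of the 3 above 0, at 180.4 to 196 CPM in SG and 170.4 to 183 CPM in WT lines (log2 fold change 0.10, unadjusted p = 0.0615).

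The last group is secreted, and it holds the largest difference of the 33. Stc2 (ENSMUSG00000020303, chromosome 11, 31357307 to 31370074), which encodes the stress glycoprotein stanniocalcin 2, had 26.7 CPM in SG1, 20.9 in SG2 and 25.7 in SG3. WT3 had 41.2, WT9 28.3 and WT11 50.2 CPM. All SG lines were below all WT lines, but WT9 stood next to SG1 and far from the other WT lines. The mean was 24.4 ± 3.09 CPM over SG lines, against 39.9 ± 11.0 CPM over WT lines (SD, n = 3 each), a log2 fold change of -0.71 (SE 0.19, 95% interval -1.16 to -0.26). With an unadjusted p of 0.00697 it did not pass over all genes (edgeR adjusted p = 0.125). Without WT9 it passed (log2 fold change -0.90, edgeR adjusted p = 0.0178), as it did without SG1 and WT9 (edgeR adjusted p = 0.00815), and without WT11 its log2 fold change was -0.50 (edgeR adjusted p = 0.316).

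Fgf21 had 0.598 CPM in SG1, 0.486 in SG2 and 0.462 in SG3, against 0.62 in WT3, 0.581 in WT9 and 0.7495 CPM in WT11, with SG1 above WT9 and a wide interval (-0.85 to 0.18). Gdf15, a TGF-beta family member that p53 also induces in cells that have it, had 1.20 CPM in SG1, 2.05 in SG2 and 1.87 in SG3, against 1.42 in WT3, 1.76 in WT9 and 1.58 CPM in WT11. SG1 was its lowest line and SG2 its highest, so the WT lines lay inside the range of the SG lines.

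**Figure D3:**
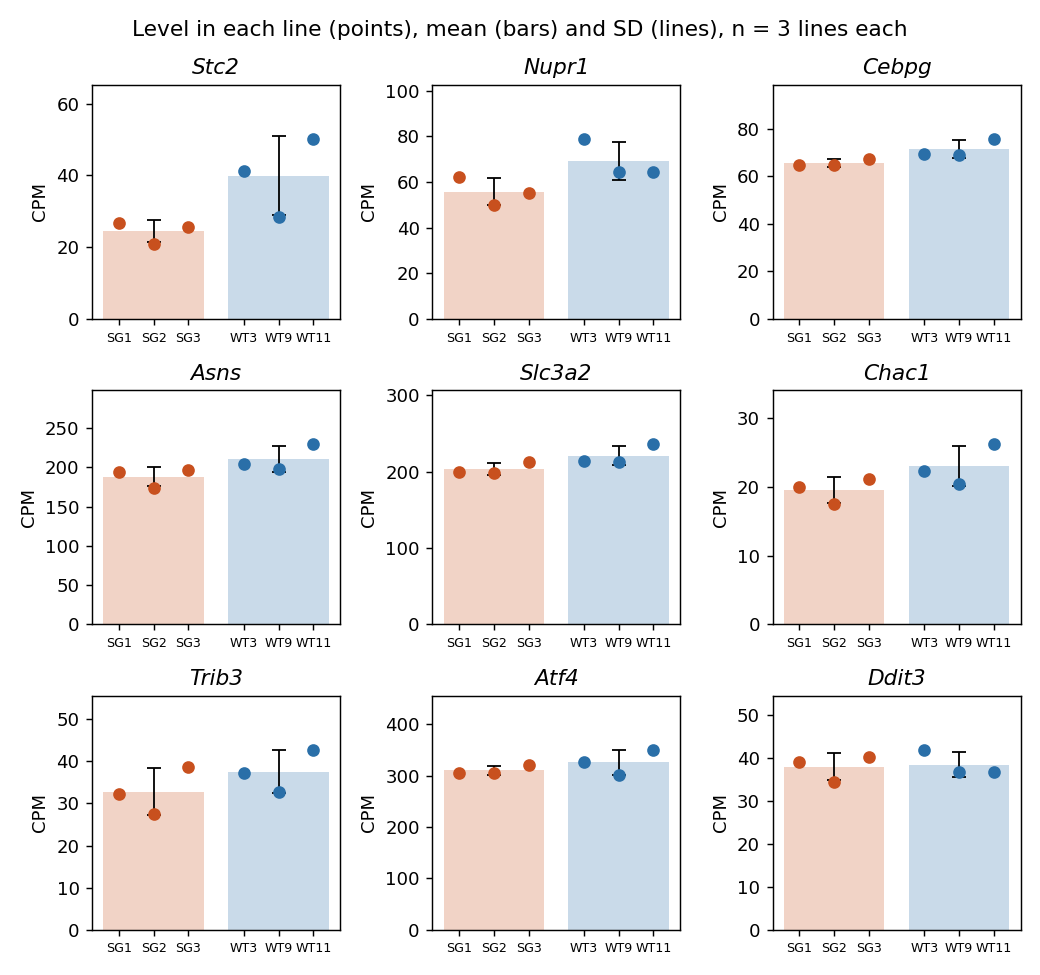
CPM of 9 of the genes in each line (points), with the mean (bars) and SD (lines) of 3 SG lines and 3 WT lines. The genotypes do not overlap for Stc2, Nupr1, Cebpg and Asns, and they do for Slc3a2, Chac1, Trib3, Atf4 and Ddit3, with WT11 the highest line except for Nupr1 and Ddit3.

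Differences between single lines recurred across the programme. WT11 was the highest line for 19 of the 33 genes (57.6%) and SG2 the lowest for 18 (54.5%), where WT11 was highest for 22.0% and SG2 lowest for 15.5% of all tested genes. WT9 was highest for 0 and SG1 for 1, where WT9 was highest for 11.1% and SG1 for 17.3% of all tested genes. Each gene was also set against its own mean over the 6 lines. The median log2 difference of the 33 genes was -0.055 for SG1, -0.13 for SG2 and 0.059 for SG3, against 0.015 for WT3, -0.05 for WT9 and 0.15 for WT11, so the genotypes overlapped. WT11 was above the mean in 28 of the 33 genes, SG3 in 27 and WT3 in 19, while SG2 was above it in 3. SG1 and WT9, the lines read as female, were above it in 8 and 9. The part of sex in these differences was not tested. These counts describe the lines, and genes of 1 programme are not independent of each other.

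Lines ranked alike within each genotype. SG3 was the highest SG line for 26 of the 33 genes (37.7% of all tested genes) and SG2 the lowest for 23 (29.8%). Among WT lines WT11 was highest for 26 (36.0% of all tested genes) and WT9 lowest for 27 (32.5%). The macrophage sum was lowest in WT11 (15.4 CPM) and highest in SG3 (84.6 CPM), the lines highest in the programme within each genotype. The sum of the 8 epithelial markers was lowest in these lines within each genotype. It was 47.1 CPM in SG1, 46.9 in SG2 and 19.2 in SG3, against 22.8 in WT3, 26.2 in WT9 and 12.6 CPM in WT11. The part of either sum in this pattern was not tested. The median gene of the programme differed 1.29-fold between its highest and lowest line, beside 1.24-fold for all tested genes and 1.18-fold for the 13382 of them at least as abundant as the lowest of the 33. In all, 2 of the 33 (6.06%), Stc2 (2.40-fold) and Cbs (2.15-fold), differed at least 2-fold, beside 19.2% of all tested genes and 9.31% of those 13382.

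The 10 genes with the composite element in the promoter window had a median log2 fold change of -0.13 (range -0.34 to 0.15), with 7 below 0. The 18 without it had a median of -0.05 (range -0.71 to 0.10), with 14 below 0. The ranges overlapped, and the difference between these sets was not tested. For the 5 genes not in the promoter table the median was -0.07. WT11 was the highest line for 4 of those 10 and for 11 of those 18, and SG2 the lowest for 5 and 10.

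**Figure D4:**
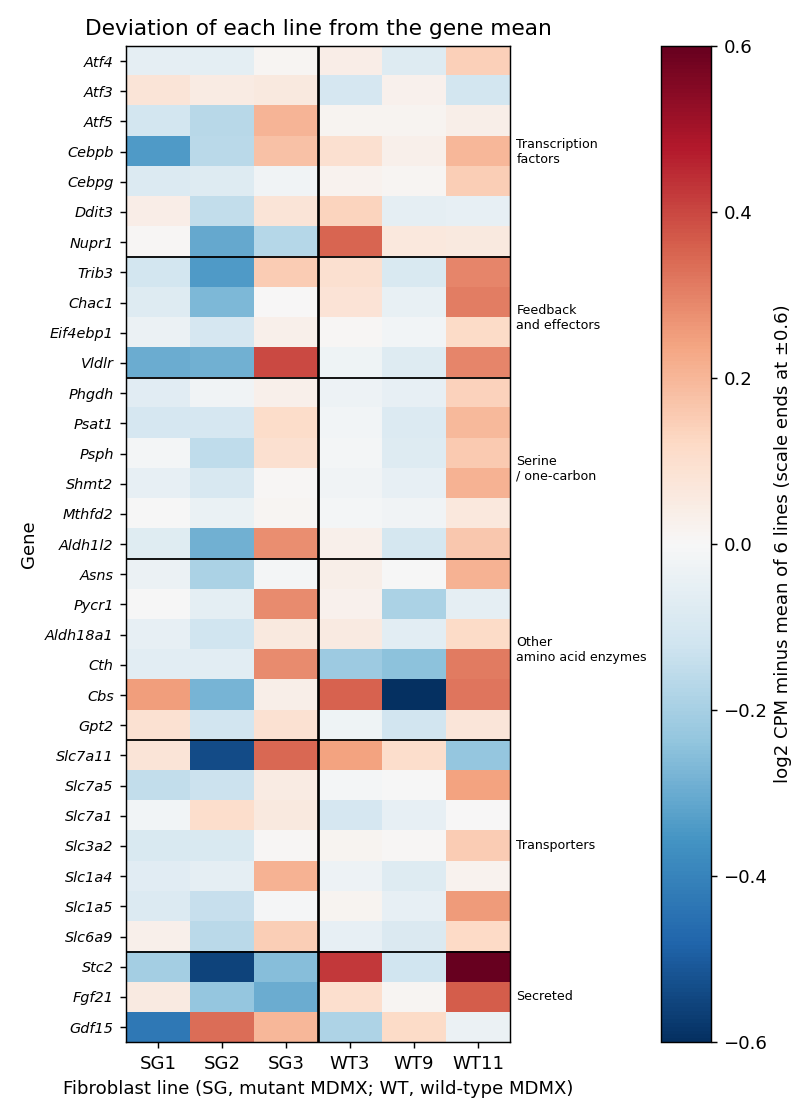
Log2 CPM of each of the 33 genes in each line minus the mean of the 6 lines, SG lines left and WT lines right, grouped by role. Colour runs mostly blue in SG2 (above the mean in 3 of 33 genes) and red in WT11 (28 of 33) and SG3 (27 of 33), so the columns vary within each genotype.

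**Figure D5:**
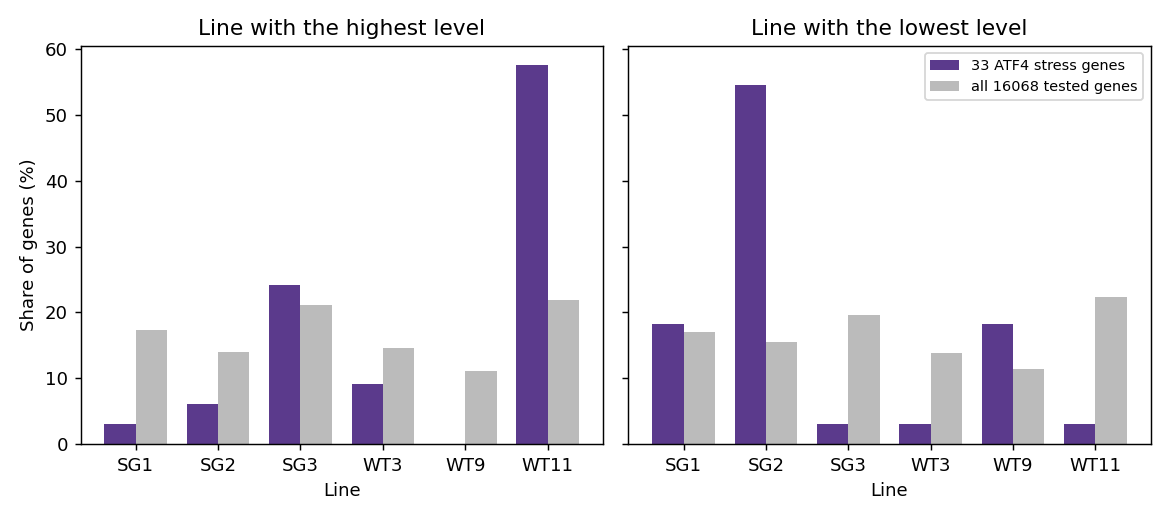
Share of genes (%) for which each line was the highest (left) or the lowest (right), for the 33 ATF4 stress genes and for all 16068 tested genes. WT11 is highest for 57.6% of the 33 genes and SG2 lowest for 54.5%, beside 22.0% and 15.5% of all tested genes.

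Genes upstream of the programme and in neighbouring stress responses were then read from lists chosen by function. Of 16 genes for eIF2 kinases and eIF2 control, 0 passed the threshold. Eif2ak4, which encodes GCN2, averaged 52.5 ± 1.52 in SG lines against 52.3 ± 0.985 CPM in WT lines (SD, n = 3 each). Eif2ak3, which encodes PERK, averaged 27.7 ± 0.935 in SG lines against 27.8 ± 1.25 CPM in WT lines (SD, n = 3 each). The smallest p of that list were those of Gcn1l1, the coactivator of GCN2 (log2 fold change 0.13, edgeR adjusted p = 0.147), and Eif2b2, a subunit of the eIF2 exchange factor (-0.15, edgeR adjusted p = 0.193).

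The 20 cytosolic aminoacyl-tRNA synthetases, which charge tRNAs and include many ATF4 targets, also had 0 past the threshold, with a median log2 fold change of -0.04. Rars, for arginine, came closest, with 237 CPM in SG1, 233 in SG2 and 217 in SG3, against 272 in WT3, 261 in WT9 and 293 CPM in WT11 (log2 fold change -0.27, edgeR adjusted p = 0.0539), followed by Nars (-0.10, edgeR adjusted p = 0.303). They shared the pattern of single lines: WT11 was highest for 18 of 20 and SG2 lowest for 12.

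Of 12 further ATF4 targets, 0 rose and 1 fell. Jdp2, a repressor at AP-1 sites, had 54.1 CPM in SG1, 50.2 in SG2 and 52.2 in SG3, against 71.5 in WT3, 70.2 in WT9 and 77.6 CPM in WT11, with a wide gap between the genotypes. It was 1.40-fold lower in SG lines (log2 fold change -0.49, SE 0.05, edgeR adjusted p = 0.0106), and the call was lost without SG2 (edgeR adjusted p = 0.0652) or WT3 (0.051). Sesn2 and Ddit4, which restrain mTOR when amino acids are short, had log2 fold changes of -0.02 and -0.16 and did not pass.

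The unfolded protein response of the endoplasmic reticulum had 0 of 19 past the threshold. Of its log2 fold changes 14 lay above 0, beside 50.7% of all tested genes. Atf6 and Ern1, the sensors of its other arms, had the smallest p (log2 fold changes 0.18 and 0.22, edgeR adjusted p = 0.125 and 0.135). Here SG3 was the highest line for 15 of 19 genes and WT11 for 1, beside 21.1% and 22.0% of all tested genes. In the ATF4 programme WT11 led most often. By the median log2 difference from the mean, SG3 (0.12) and WT11 (0.011) were the highest lines, as in the ATF4 programme, with SG3 first. The chaperone gene Hspa5 had 1517 CPM in SG1, 1594 in SG2 and 1763 in SG3, against 1516 in WT3, 1500.1 in WT9 and 1651 CPM in WT11. Among 12 NRF2 targets, antioxidant genes that share Slc7a11 with ATF4, 0 passed, Gsr being closest (log2 fold change -0.16, edgeR adjusted p = 0.076) and Txnrd1 next (-0.15, edgeR adjusted p = 0.115). Of 8 mitochondrial chaperones and proteases 0 passed, with Clpp and Lonp1 at -0.08 and -0.06 (edgeR adjusted p = 0.415 and 0.602). WT11 was the highest line for 6 of these 8 genes and for 8 of the 16 genes of eIF2 control, beside 22.0% of all tested genes. Its median log2 difference from the mean was small, 0.095 and 0.075 in these lists. SG2 was the lowest line for 2 genes in each of these lists. Among the 12 NRF2 targets WT11 was the highest line for 4 and the lowest for 3. A frequent top rank of WT11 was therefore not limited to the ATF4 programme, though not shared by every list.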

How the data were processed

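Poly(A)-selected RNA was counted in 6 fibroblast lines, 1 library each, grouped by the genotype in their titles. The deposited files hold unnormalised whole-number counts of reads per gene. Per the submitters' processing notes, the authors used Trimmomatic 0.36, STAR 2.5.2b, GRCm38, featureCounts of Subread 1.5.2 and DESeq2, while annotation release, strand setting and treatment of multimapping reads are not given in the sources used here. Litter, culture day and sequencing batch are not given either, so no batch term was fitted. Symbols came from GENCODE M21 (48970 of 49315 identifiers).

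Genes passed filterByExpr at its defaults in edgeR 4.0.16 (R 4.3.3). SG was tested against WT, 2-sided, by the quasi-likelihood test on TMM-scaled counts, with Benjamini-Hochberg adjustment over 16068 genes and a threshold of 0.05. The SE is the log2 fold change over the square root of F, and intervals use its degrees of freedom. CPM are counts scaled by TMM library sizes and RPKM divide them by the exon length in the files. Deviations use log2 CPM with a prior count of 2. DESeq2 1.42.0 was an alternative, run on all 28807 genes with a read and, chosen after the data were seen, on the 16068 genes of the filter. Reads are not counted by molecule, so depth speaks for counting error only.

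The 33 genes and the other lists were chosen with earlier results of these data known, so lists are described by counts and medians and not tested. Values in every line are given for Atf4, Asns, Trib3, Chac1, Ddit3, Psat1, Phgdh, the 6 genes of smallest p and the 6 of widest range. Of other lists, genes past the threshold or else the 2 of smallest p are named. Further genes are named to complete their group, chosen after their values were seen. Of the 33 genes, 31 have the same start and end in M21 as in the files, Atf4 and Cbs being the exceptions.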

Additional observations from a re-analysis of the deposited data

How the results depend on the processing

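Under 15 alternatives 0 of the 33 genes rose, although at least 1 CPM in 3 lines left Cbs and Fgf21 untested. In SG lines 2 were lower without a count filter (Stc2, adjusted p = 0.00523, and Nupr1, 0.0328), 1 with DESeq2 on all 28807 genes with a read (Nupr1, 0.0297) or, chosen after the data were seen, on the 16068 filtered genes (Nupr1, 0.035), 1 without SG1 and WT9 (Stc2, 0.00815) and 0 to 1 when a line was left out. Over all genes, 130 were higher and 176 lower in SG lines. Without a count filter these were 421 and 538, with DESeq2 on all genes with a read 422 and 530, with DESeq2 on the filtered genes 426 and 508, without SG1 and WT9 315 and 388, and 2 to 234 and 1 to 345 when a line was left out. The lowest counts came without SG2 and the highest without SG1, and without WT3 (14 and 10) or WT11 (14 and 15) they were also low. Of the aminoacyl-tRNA synthetases 1 was lower without a count filter, 1 with DESeq2 on either set, 1 without SG1 and WT9 and 0 to 1 when a line was left out. Of the NRF2 targets 2 were lower with DESeq2 on either set, of the unfolded protein response 1 was higher with DESeq2 on the filtered genes, and of the further ATF4 targets 0 to 1 when a line was left out. The cause was not tested.

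Signs near 0 turned when a line was left out, with log2 fold changes of -0.16 to 0.034 for Atf5, -0.065 to 0.048 for Ddit3, -0.37 to 0.027 for Vldlr, -0.074 to 0.023 for Phgdh, -0.14 to 0.024 for Psat1, -0.11 to 0.028 for Psph, -0.038 to 0.0057 for Mthfd2, -0.21 to 0.082 for Aldh1l2, -0.035 to 0.30 for Cth, -0.34 to 0.13 for Cbs, -0.25 to 0.17 for Slc7a11, -0.033 to 0.11 for Slc1a4, -0.060 to 0.094 for Slc6a9 and -0.052 to 0.30 for Gdf15. Without SG1 and WT9 those of Atf5 (0.0051), Gpt2 (-0.033) and Slc6a9 (-0.037) turned. The median of the 33 lay between -0.12 and -0.01 over all alternatives. Other scalings, chosen after the data were seen, left WT11 highest for 19 genes and SG2 lowest for 18 to 22. No paired analysis was possible because the line numbers of the genotypes share fewer than 2 values and name separate embryos. With 3 lines a genotype, small differences of the low genes Cbs, Fgf21 and Gdf15 were not detectable.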
